A study of Mus musculus with 6 samples.

Results

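Interferon-stimulated genes are transcripts whose levels rise when a cell receives an interferon signal, and 39 of them were followed in the mouse cochlear lateral wall at 2 ages. They were taken from a list of 31 genes typical of type I interferon and 8 genes typical of interferon gamma, each matched to the array by its symbol. Of the 39, 37 were measured, 29 of the type I class and 8 of the gamma class, among 18193 genes with a probe set of a single symbol. Isg15 was present only on a probe set that carries several symbols, and Ifi44 was on none with a listed symbol, so neither has a value here. A gene with more than 1 probe set was represented by the one with the highest mean signal over all 6 arrays.

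The tissue was microdissected from CBA/CaJ mice, an inbred strain, at 1 to 3 months of age (young adult) and at 1.5 years (old), with no other treatment or allele named. Each age had 3 samples, 1 per Affymetrix array, and mice of both sexes were used. The array reads biotin-labelled RNA copied from the poly(A) end, and a value is a log2 signal, so a difference of 1 is a doubling. The labels do not tell whether a sample is 1 animal or a pool, and the p-values therefore describe the spread among these 6 samples, which may be technical. The question the design poses for these genes is whether their RNA differs with age in the lateral wall.

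Type I interferons (the alpha and beta families) bind a receptor made of Ifnar1 and Ifnar2, and the kinases Jak1 and Tyk2 then pass the signal on. A complex that includes Stat2 and Irf9 binds the interferon-stimulated response element (ISRE) and turns on antiviral genes such as the oligoadenylate synthetases and the Ifit family. Interferon gamma binds Ifngr1 and Ifngr2 and acts mainly through the gamma-activated site (GAS), which turns on Irf1, the guanylate-binding proteins and the immunity-related GTPases. Many target genes respond to both kinds of interferon. The lateral wall holds the stria vascularis, which makes the endocochlear potential, and the spiral ligament, and resident macrophages lie along its capillaries.

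Promoter sequences are given for 6 of the members described below. They are Oas1a and Trim30a, which were higher in old samples, Rsad2, whose signals lay lower in old samples, and the gamma-induced Irf1, Gbp7 and Igtp. Parp14, the remaining member that was higher, had no entry in the promoter table. Each sequence is the 250 bases before an annotated transcription start in RefSeq, build GRCm38.p6, written 5′ to 3′ along the gene's own strand. Trim30a and Irf1 each have another annotated start, and the window printed for them was picked by its motif. Capitals mark 2 motifs: the ISRE core GAAANNGAAA, searched on both strands (TTTCNNTTTC when it lies on the other strand), and the GAS core TTCNNNGAA, which reads the same on both strands. The windows are at chr5:120907526-120907775 (minus strand, Oas1a), chr7:104465194-104465443 (minus, Trim30a), chr12:26456453-26456702 (minus, Rsad2), chr11:53769764-53770013 (plus, Irf1), chr3:142530086-142530335 (plus, Gbp7) and chr11:58199306-58199555 (plus, Igtp).
Oas1a: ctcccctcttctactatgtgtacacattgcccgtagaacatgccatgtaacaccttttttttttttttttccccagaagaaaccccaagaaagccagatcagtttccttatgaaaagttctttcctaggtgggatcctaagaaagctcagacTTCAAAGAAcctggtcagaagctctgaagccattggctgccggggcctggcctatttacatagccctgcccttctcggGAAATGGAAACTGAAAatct
Trim30a: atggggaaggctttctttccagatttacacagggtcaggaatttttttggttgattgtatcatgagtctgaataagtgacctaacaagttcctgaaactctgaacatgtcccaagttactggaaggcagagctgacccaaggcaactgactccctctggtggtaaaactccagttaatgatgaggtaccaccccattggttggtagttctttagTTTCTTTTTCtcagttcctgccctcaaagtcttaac
Rsad2: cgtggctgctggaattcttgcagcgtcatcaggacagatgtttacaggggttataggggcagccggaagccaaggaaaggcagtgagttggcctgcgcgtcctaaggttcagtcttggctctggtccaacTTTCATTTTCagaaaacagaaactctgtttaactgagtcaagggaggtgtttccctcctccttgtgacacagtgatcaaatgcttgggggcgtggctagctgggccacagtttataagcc
Irf1: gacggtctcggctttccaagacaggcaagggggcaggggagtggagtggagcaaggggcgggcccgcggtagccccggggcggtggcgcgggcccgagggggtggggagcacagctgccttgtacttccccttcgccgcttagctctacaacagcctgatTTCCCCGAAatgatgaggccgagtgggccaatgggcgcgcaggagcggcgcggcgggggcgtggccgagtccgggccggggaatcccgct
Gbp7: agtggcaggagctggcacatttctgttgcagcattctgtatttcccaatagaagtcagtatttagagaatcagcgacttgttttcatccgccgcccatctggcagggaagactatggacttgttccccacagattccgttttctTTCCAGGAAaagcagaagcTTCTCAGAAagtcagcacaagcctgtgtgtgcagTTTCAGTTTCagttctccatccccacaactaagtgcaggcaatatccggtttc
Igtp: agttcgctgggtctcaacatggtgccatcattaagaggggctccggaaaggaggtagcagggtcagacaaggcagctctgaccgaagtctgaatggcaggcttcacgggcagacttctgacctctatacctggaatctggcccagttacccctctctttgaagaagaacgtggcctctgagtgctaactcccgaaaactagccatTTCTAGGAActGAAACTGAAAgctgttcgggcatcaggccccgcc
Oas1a held an overlapping pair of ISRE cores, with first bases 20 and 14 bases before the start, and a GAS core 98 bases before it. Trim30a held 1 ISRE core, 36 bases before the start, and Rsad2 held 1, 120 bases before it. At the other Trim30a start, not printed, the ISRE core began 2 bases after the start. Irf1 held a GAS core 90 bases before the start and no ISRE core in the window. The window of its other start, not printed, held neither core. Gbp7 held 1 ISRE core and 2 GAS cores, and Igtp 1 of each.

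Over windows of 300 bases (250 before the start and 50 after it), 29 of the 39 members had an entry. The ISRE core was found for 12 of 22 type I members (54.5%) and 5 of 7 gamma-induced members (71.4%), against 3.99% of the 27025 genes in the table. The GAS core was found for 6 of 22 type I members (27.3%) and 4 of 7 gamma-induced members (57.1%), against 9.55% of all genes. Both cores were found for 5 members and neither for 7. A match is a description of the letters, and a window without one says nothing about what binds there.

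Few facts of the whole series touch these genes. Most markers listed for 2 lateral wall cell types were well detected. Otos and Coch, made by spiral ligament fibrocytes, lay at 13.93 or above on all 6 arrays. Kcnj10 of strial intermediate cells lay at 12.67 or above. Mean signals exceeded the median signal, 6.28, for all 9 fibrocyte markers and for 7 of 9 strial intermediate markers. The strial intermediate markers Tyrp1 and Pmel were dim, at 4.01 to 4.33 and 5.90 to 6.20. Young replicate 2 stood apart from the other 5 arrays. Its signal of Xist, the RNA of the silenced X chromosome in females, was 6.06 where the others lay from 11.95 to 12.65, and its Y-linked Eif2s3y was 10.46 against 8.97 to 9.71. The Y-linked Kdm5d and Uty were 8.96 and 8.99 there, against 7.19 to 8.04 and 7.41 to 8.03. The other 5 arrays thus carried both Xist and Y-linked signals. By these signals those samples hold RNA of both sexes, so of more than 1 mouse, while young replicate 2 looks male. The labels do not state how many mice a sample holds, and the SD of a group may be a spread between pools. Results for the members are therefore given with and without young replicate 2, which was singled out with earlier results of these data known. Leaving it out also removes the only array with low Xist, and the part of sex in the member differences was not tested.

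In old samples 3 of the 29 type I members rose, Oas1a, Trim30a and Parp14, by 1.94, 2.14 and 1.67 times, and no type I member fell on its main probe set, where 1 was lower at an unadjusted p under 0.05 (limma, Benjamini-Hochberg adjusted p under 0.05 over 45037 probe sets). None of the 8 gamma-induced members passed, and 3 of them had an unadjusted p under 0.05. Of all 18193 genes, 3762 had an unadjusted p under 0.05, 2447 of them higher and 1315 lower. Counts at that level given below for other lists, with all 6 arrays, have the same background. Of all probe sets 4.71% were called and of all genes 4.78%, with 2.45% of genes higher and 2.33% lower. The 3 calls are 10.3% of the type I members, and because they are so few, 1 call more or less moves that share by several points. The median difference, old minus young, was 0.20 for the type I members and 0.28 for the gamma-induced members, against 0.03 for all genes. It was above 0 for 24 of 29 type I and 8 of 8 gamma-induced members, and for 57.9% of all genes. Among genes with a mean above the median signal, 62.1% lay above 0, 3.21% were called higher and the median difference was 0.05. Single members ranged from -0.30 (Rsad2) to 1.10 (Trim30a).

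**Figure D1:**
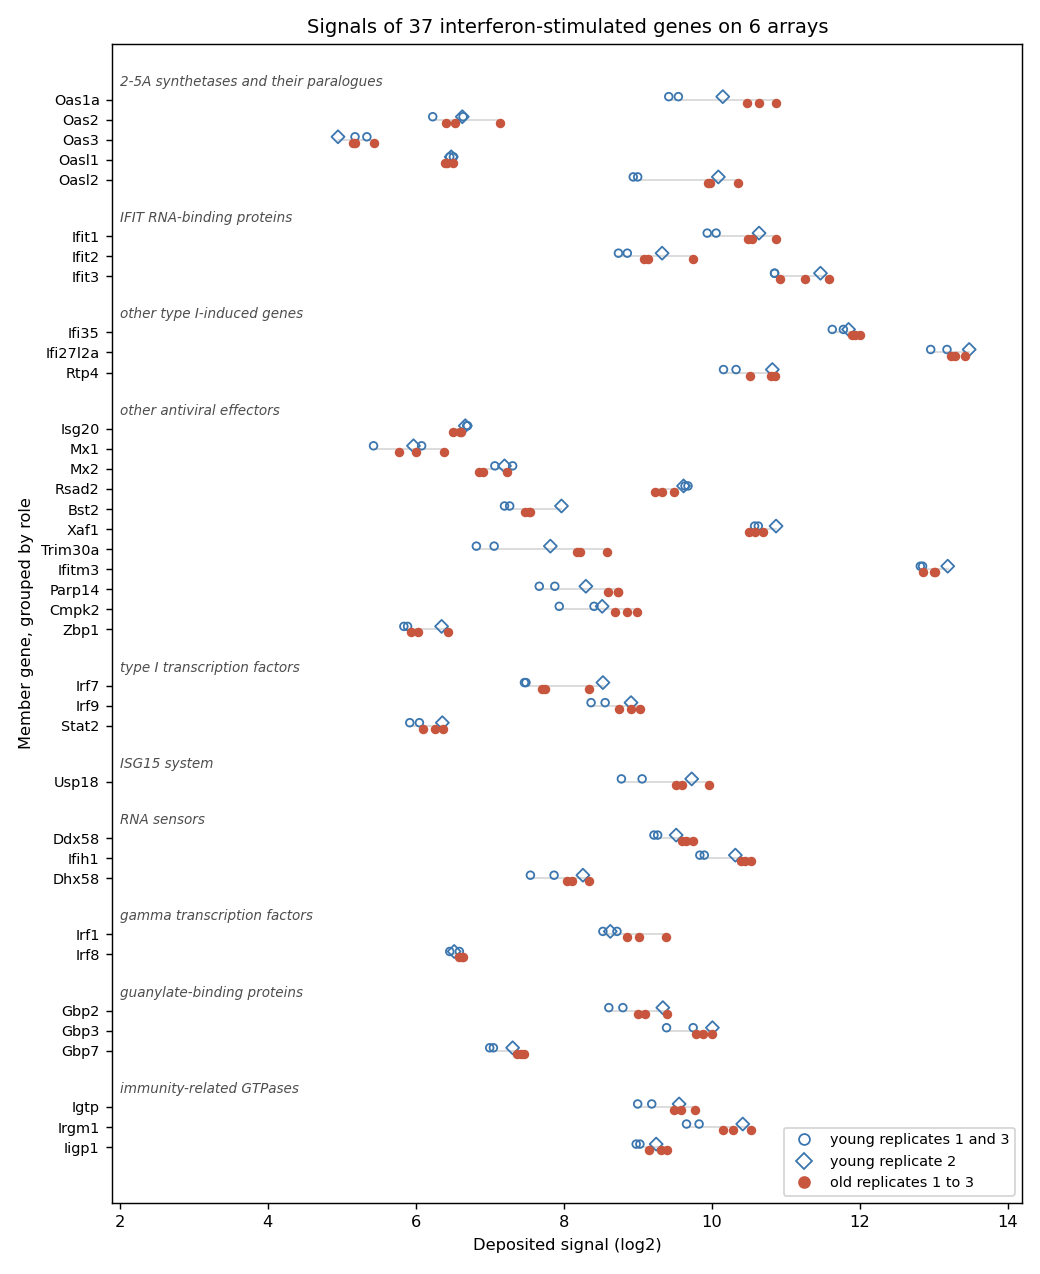
Log2 signal (x axis) of each of the 37 measured interferon-stimulated genes (rows), with 1 point per array, 3 young and 3 old. Old points lie to the right of every young point for 9 genes, among them Oas1a, Trim30a and Parp14, and to the left for Rsad2 and Isg20.

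The plot of signals by gene shows that the 3 old arrays lay above all 3 young arrays for 9 of the 37 members (24.3%). Of all genes 17.0% had that pattern, and of genes with a mean above the median signal 22.8%, close to the members' share. The 9 were the type I members Oas1a, Trim30a, Parp14, Cmpk2, Ddx58, Ifih1 and Ifi35 and the gamma-induced Irf1 and Gbp7. All 3 old arrays lay below the young ones for 2 members, Rsad2 and Isg20, a pattern that 9.70% of all genes had. The remaining 26 members overlapped between the ages.

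Oas1a makes an oligoadenylate synthetase, which senses double-stranded RNA and activates the nuclease RNase L. It had signals of 9.42, 10.15 and 9.55 in young replicates 1, 2 and 3 and of 10.64, 10.48 and 10.87 in old replicates 1, 2 and 3. Every old array was above every young one, and young replicate 2 was the nearest to the old arrays. The mean rose from 9.71 ± 0.39 to 10.66 ± 0.20 (SD, n = 3 per age), a difference of 0.96 ± 0.19 (SE, limma adjusted p = 0.0278). Mice carry several near-identical Oas1 genes, and the share of the signal that comes from each copy was not separated.

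Among the other synthetases, Oasl2, an oligoadenylate synthetase-like protein, had signals of 9.0, 10.09 and 8.94 in young and 9.95, 9.98 and 10.35 in old samples. Young replicate 2 lay within the old range, and the difference of 0.75 ± 0.28 did not pass (limma adjusted p = 0.182). Oas2, Oas3 and Oasl1 had differences of 0.19, 0.10 and -0.05, all with overlapping groups. Oas3 was dim, at 4.95 to 5.43, below the median signal of all probe sets, 6.28. The copies Oas1b and Oas1h, which are not members, had old arrays above young ones by 0.18 each, and Oas1c had 0.13, with none called. Oas1h was dim as well, at 4.30 to 4.67.

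Trim30a belongs to the tripartite-motif family, and its protein restrains signalling from Toll-like receptors. Its signals were 7.06, 7.82 and 6.82 in young and 8.18, 8.22 and 8.59 in old samples. The groups did not overlap, and young replicate 2 was again the nearest to the old arrays. The mean rose from 7.23 ± 0.52 to 8.33 ± 0.23 (n = 3 per age), by 1.10 ± 0.24 (limma adjusted p = 0.0374). A further probe set of the gene also rose, by 0.76 ± 0.17 (limma adjusted p = 0.0461), a call that was lost without any single array other than young replicate 2, with adjusted p up to 0.169. Trim30a has close paralogues on the same chromosome, whose share of the signal was not separated. Trim30d, on a probe set of its own, had a difference of 0.02 at dim signals of 4.44 to 4.71.

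Parp14 is a large mono-ADP-ribosyltransferase encoded beside Parp9 and Dtx3l. It gave 7.67, 8.30 and 7.88 in young and 8.73, 8.60 and 8.74 in old samples. The 3 old arrays lay close together and above all young arrays. The mean rose from 7.95 ± 0.32 to 8.69 ± 0.08 (n = 3 per age), by 0.74 ± 0.15 (limma adjusted p = 0.0304). A second, dimmer probe set gave 0.16 (limma adjusted p = 0.336), and the mean of both gave 0.45, which passed over genes (limma adjusted p = 0.0421). Its neighbour Dtx3l, from the list of further interferon-induced genes, had 8.44, 8.83 and 8.77 in young and 8.97, 9.19 and 9.25 in old samples without passing (limma adjusted p = 0.0780).

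The 3 calls changed with which array was left out, and all 3 held without young replicate 2. Oas1a lost its call without young replicate 1 or 3 or old replicate 1 or 3, with adjusted p up to 0.118. Trim30a and Parp14 lost theirs without any single array other than young replicate 2, with adjusted p up to 0.141 and 0.122.

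The RNA sensors of the list recognise viral RNA in the cytosol and signal through Mavs. Ifih1, which encodes MDA5, had 9.90, 10.32 and 9.84 in young and 10.45, 10.39 and 10.53 in old samples, and Ddx58, which encodes RIG-I, had 9.27, 9.52 and 9.22 against 9.65, 9.60 and 9.75. In both genes all old arrays were above all young ones, with young replicate 2 just below the lowest old array. Their differences of 0.44 ± 0.13 and 0.33 ± 0.10 did not pass (limma adjusted p = 0.0985 and 0.106). A second Ddx58 probe set gave 0.36, again with old arrays above young ones, and the dimmest gave 0.04 with overlapping groups. Dhx58, the regulatory relative LGP2, had a difference of 0.27 with overlapping groups.

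Cmpk2, a nucleotide kinase of mitochondria, and Rsad2, which encodes viperin, are neighbours on chromosome 12 that are transcribed away from each other. Cmpk2 had 7.94, 8.52 and 8.41 in young and 8.70, 8.86 and 8.99 in old samples, a difference of 0.56 ± 0.15 (limma adjusted p = 0.0786). Rsad2 had 9.64, 9.62 and 9.68 in young and 9.33, 9.23 and 9.49 in old samples, a difference of -0.30 ± 0.09 (limma adjusted p = 0.103). The neighbours' groups separated in opposite directions, which was noticed after their values were seen, and the difference between the genes was not tested. A second Rsad2 probe set had 7.86, 7.85 and 7.94 in young and 7.36, 7.46 and 7.60 in old samples and fell by 0.41 ± 0.09 (limma adjusted p = 0.0370). That call was lost without any single array other than young replicate 2, with adjusted p up to 0.130, and the dimmest Rsad2 probe set gave -0.01. A second Cmpk2 probe set gave -0.07.

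Of the remaining antiviral effectors, Isg20, a 3′ to 5′ exonuclease, had 6.69, 6.67 and 6.70 in young and 6.61, 6.51 and 6.60 in old samples. The groups did not overlap, but the difference of -0.11 was small (limma adjusted p = 0.483). Ifitm3, which blocks the fusion of viruses with endosomes, was among the brightest type I members, with 12.85, 13.19 and 12.82 in young and 12.86, 13.00 and 13.02 in old samples. Its difference of 0.01 came with overlapping groups. Bst2 (tetherin), Xaf1, Zbp1, Mx1 and Mx2 had differences of 0.04, -0.09, 0.10, 0.23 and -0.19, all with overlapping groups. Many inbred mouse strains carry defective Mx1 alleles, and the allele of these mice was not examined.

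The Ifit proteins bind foreign RNA that lacks the host's cap methylation. Ifit1 had 9.94, 10.64 and 10.06 in young and 10.55, 10.49 and 10.87 in old samples, a difference of 0.42 ± 0.18 (limma adjusted p = 0.251). Ifit2 and Ifit3 had differences of 0.35 and 0.20. In all 3 genes young replicate 2 lay among the old arrays.

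In the Isg15 system, Usp18, the protease that removes Isg15 from proteins and dampens receptor signalling, had 8.78, 9.73 and 9.06 in young and 9.52, 9.60 and 9.96 in old samples. Its difference of 0.50 ± 0.23 did not pass (limma adjusted p = 0.270), and young replicate 2 lay above 2 of the old arrays.

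Among the other type I-induced genes, Ifi35 had 11.63, 11.85 and 11.78 in young and 11.94, 11.90 and 12.00 in old samples. The groups did not overlap, and the difference was 0.19 ± 0.09 (limma adjusted p = 0.268). Ifi27l2a had the highest signals of the type I members, at 13.18, 13.48 and 12.96 in young and 13.29, 13.23 and 13.43 in old samples. It overlapped between the ages, with a difference of 0.11. Rtp4 had a difference of 0.29.

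Irf9, the DNA-binding part of the type I complex, had 8.37, 8.91 and 8.56 in young and 8.75, 8.91 and 9.03 in old samples, a difference of 0.28 (limma adjusted p = 0.326). Irf7, which amplifies interferon alpha transcription, had 7.47, 8.53 and 7.49 in young and 7.75, 7.71 and 8.34 in old samples, a difference of 0.10. Young replicate 2 gave the highest Irf7 value of all 6 arrays. Stat2 had a difference of 0.13.

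Of the gamma-induced transcription factors, Irf1 had 8.72, 8.63 and 8.53 in young and 9.38, 9.02 and 8.86 in old samples. All old arrays were above all young ones, and the difference of 0.46 ± 0.13 was short of the threshold (limma adjusted p = 0.0932). In contrast to most members, young replicate 2 lay between the other 2 young arrays for Irf1. Irf8, a factor of the myeloid lineage, had a difference of 0.09, and a second, non-overlapping probe set gave 0.46 (limma adjusted p = 0.0606).

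The guanylate-binding proteins attack the vacuoles of intracellular pathogens. Gbp7 had 7.0, 7.31 and 7.05 in young and 7.37, 7.47 and 7.42 in old samples, a difference of 0.30 ± 0.10 with no overlap (limma adjusted p = 0.134), and its second probe set gave -0.02. Gbp3 had 9.75, 10.01 and 9.39 in young and 9.88, 9.79 and 10.00 in old samples, a difference of 0.17. Gbp2 had a difference of 0.25.

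The immunity-related GTPases act on the same vacuoles. Igtp had 9.0, 9.56 and 9.19 in young and 9.77, 9.58 and 9.49 in old samples, a difference of 0.36 ± 0.14 (limma adjusted p = 0.210). Irgm1 had 9.66, 10.42 and 9.83 in young and 10.53, 10.15 and 10.29 in old samples, a difference of 0.35 ± 0.19 (limma adjusted p = 0.367). Young replicate 2 lay within the old range for both. Iigp1 had a difference of 0.20.

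Signal levels were mostly well within the array's range, since 33 of the 37 members had a mean above the median signal of 6.28. For 15 members 19 further probe sets could be read. Of these, 2 were called, Trim30a higher and Rsad2 lower, against 4.88% of all further probe sets of named genes. The sign matched the main probe set in 16 of 19, and 10 of the 19 had a mean below the median signal.

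**Figure D2:**
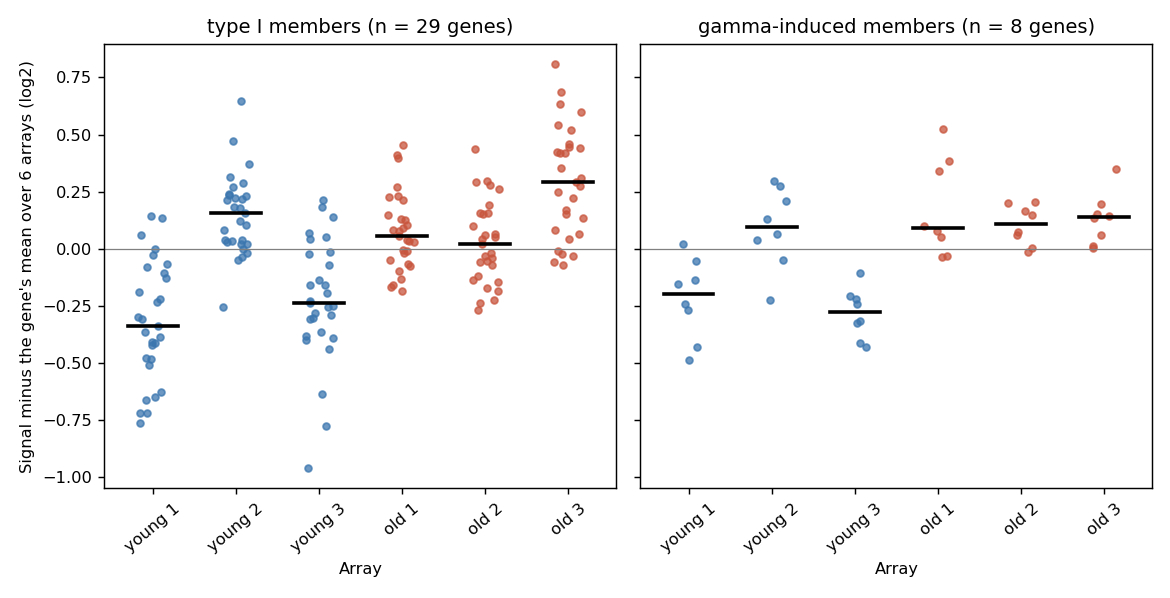
Deviation of each member's log2 signal from its own mean over the 6 arrays (y axis), per array (x axis), with 1 point per gene and a bar at the median, type I and gamma-induced members apart. The type I medians are -0.34, 0.16 and -0.24 for young replicates 1 to 3 and 0.05, 0.02 and 0.29 for old replicates 1 to 3.

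The members varied more between samples of 1 age than most genes did. Their median SD was 0.28 among young and 0.15 among old samples, against 0.12 and 0.08 for all genes. The plot of deviations by array shows where that spread lay. Young replicates 1 and 3 were low and held the lowest value of 18 and 13 of the 37 members, and old replicate 3 held the highest value of 18 members. Young replicate 2 was the highest young array for 28 of 37 members (75.7%), against 34.5% of all genes and 43.5% of genes above the median signal. Its median distance above the mean of young replicates 1 and 3 was 0.44 over the members and 0.01 over all genes. The old samples' median distance from the same 2 arrays was 0.41 over the members and 0.02 over all genes, and these distances share their baseline.

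**Figure D3:**
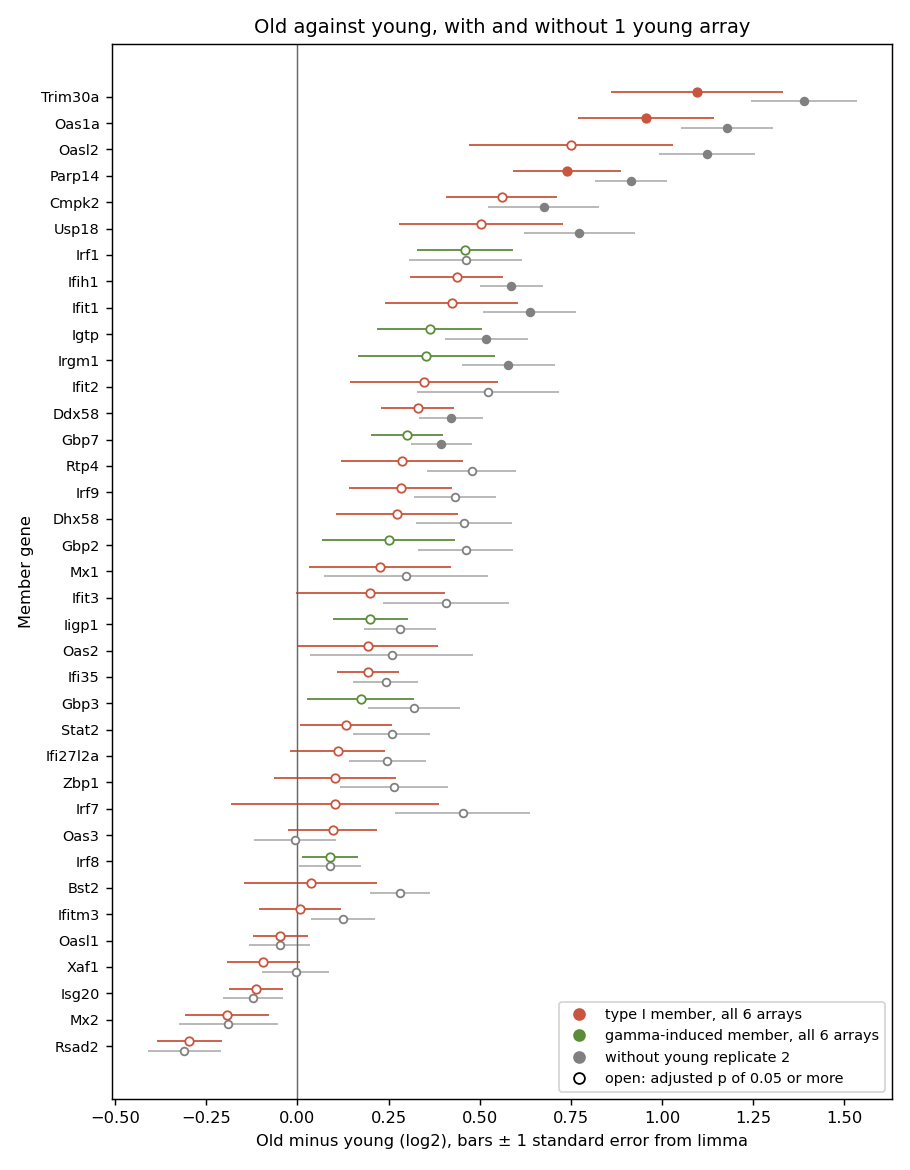
Old minus young difference (log2, x axis) of each measured member (rows) with all 6 arrays and without young replicate 2, with bars of 1 standard error from limma. Filled points passed an adjusted p of 0.05: 3 genes with all arrays and 12 without that array.

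Without young replicate 2, 5.73% of all genes were called higher in old samples and 2.63% lower. Of genes with a mean above the median signal, 8.02% were called higher. The array was picked with earlier results known and was the highest young one for 28 of the 37 members. Leaving it out raises their differences by arithmetic, so the larger count is in part built in. In the fit without it 12 members (32.4%) were higher in old samples and none lower. The 9 type I members were Oas1a, Oasl2, Ifit1, Usp18, Ddx58, Ifih1, Trim30a, Parp14 and Cmpk2, and the 3 gamma-induced ones were Gbp7, Igtp and Irgm1. Oas1a then differed by 1.18 (limma adjusted p = 0.00374), Trim30a by 1.39 (adjusted p = 0.00361), Oasl2 by 1.12 (adjusted p = 0.00494) and Irgm1 by 0.58 (adjusted p = 0.0374). The median difference became 0.41 for the type I and 0.43 for the gamma-induced members. The plot of differences with and without that array shows most members moving to the right, whereas Irf1 stayed at 0.46 and Rsad2 at -0.31. The other single arrays worked the opposite way: 1 member was called without old replicate 2 (Oas1a), and 0 by limma without young replicate 1 or 3 or old replicate 1 or 3, where 8 to 11 members had an unadjusted p under 0.05. The number of all probe sets called also varied with the array left out, over the range given in the last section. The share of all genes in each of these fits is not given here, so these counts do not set the members apart from other genes. No other tool was run.

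The rest of the pathway was read from lists of ligands, receptors, signalling parts, sensors and further induced genes. Of the 15 interferon ligands listed, 9 were measured, all with mean signals below the median signal and none called by limma, with 0 at an unadjusted p under 0.05. Their median difference was -0.07, and the smallest p belonged to Ifna11, with a difference of 0.21 (limma adjusted p = 0.266). Ligand RNA is made briefly and by few cells, and its level here was at the dim end of the array. All 6 receptor chains were measured and none was called by limma, with 2 at an unadjusted p under 0.05. The nearest was Il10rb, the chain shared by interferon lambda and interleukin-10 receptors, with 10.90, 11.17 and 11.13 in young and 11.56, 11.45 and 11.39 in old samples (limma adjusted p = 0.0560). Ifnar1, Ifnar2, Ifngr1 and Ifngr2 had differences of 0.01, -0.05, -0.10 and 0.06.

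In JAK-STAT signalling 2 of 14 measured genes fell and none rose, where 2.33% of all genes were called lower. Both encode feedback inhibitors of cytokine receptors. Not all such inhibitors fell, since Socs1 had a difference of 0.003, at dim signals of 4.99 to 5.30. Socs3 had 8.94, 8.47 and 8.91 in young and 7.81, 7.98 and 8.09 in old samples and fell by 0.81 ± 0.14 (limma adjusted p = 0.0169). Cish fell by 0.46 ± 0.10 (limma adjusted p = 0.0374). Of the 20 measured sensing genes, 2 fell and none rose. Ticam1, the adaptor of Toll-like receptor 3, fell by 0.46 ± 0.08 (limma adjusted p = 0.0235), and Samhd1, which degrades nucleotides needed by viruses, fell by 0.54 ± 0.11 (limma adjusted p = 0.0345). Each of these 4 calls was lost without at least 4 of the 6 arrays in turn, with adjusted p up to 0.0809 for Socs3 and 0.130 for Samhd1. With its probe sets averaged, Samhd1 had a difference of -0.31 and was not called (limma adjusted p = 0.0986).

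**Figure D4:**
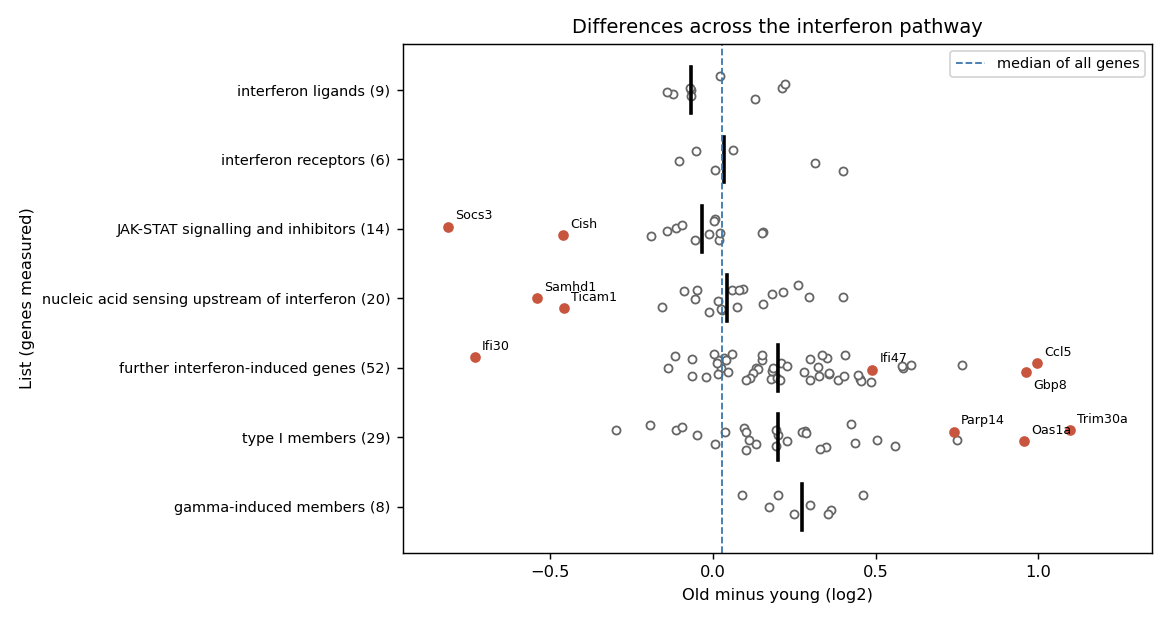
Old minus young difference (log2, x axis) of each measured gene in 7 lists of the interferon pathway (rows), with a black bar at the list's median and a dashed line at the median of all genes, 0.03. Filled points are genes with an adjusted p under 0.05, 3 of them type I members and none gamma-induced.

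Of 62 further interferon-induced genes, 52 were measured, of which 3 rose and 1 fell. The 3 are 5.77% of the list, against 2.45% of all genes called higher, and 2.33% of all genes were called lower. Ccl5, a chemokine that attracts T cells, had 6.97, 7.08 and 6.87 in young and 7.72, 8.15 and 8.04 in old samples and rose by 1.00 ± 0.12 (limma adjusted p = 0.00498). Ifi47, an immunity-related GTPase, rose by 0.49 ± 0.10 (limma adjusted p = 0.0342), and Gbp8 rose by 0.96 ± 0.22 (limma adjusted p = 0.0441) at dim signals of 3.92 to 5.47. Ifi30, a lysosomal thiol reductase of antigen processing, had 11.72, 11.74 and 11.71 in young and 11.04, 10.98 and 10.96 in old samples and fell by 0.73 ± 0.07 (limma adjusted p = 0.00244). Ccl5 and Ifi30 kept their calls under all 15 alternatives tried, and Ifi47 and Gbp8 lost theirs without any single array other than young replicate 2, with adjusted p up to 0.112 and 0.152. Gbp8 also lost its call with all 6 arrays under quantile normalization (limma adjusted p = 0.0538) and cyclic loess (adjusted p = 0.0576), and was called under 7 of the 14 alternatives that could be run for it. The plot of pathway lists shows a median of 0.20 for the 52 genes, the value of the type I members, and 46 of the 52 lay above 0. Young replicate 2 was the highest young array for 35 of the 52 (67.3%), against 34.5% of all genes. Without it 17 were called higher (32.7%, against 5.73% of all genes) and 1 lower.

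Signals of other cells moved with age in the same samples, and their part in the member differences was not tested. In whole tissue, more cells of a type and more RNA per cell cannot be told apart. Of all genes 2.45% were called higher and 2.33% lower, the background for each marker list here. Of 20 macrophage markers 4 rose and 2 fell, and their mean signal lay at 7.74 to 7.87 in young and 7.99 to 8.07 in old samples. Lyz2, Clec7a, Cd68 and Tyrobp rose by 1.56, 1.28, 1.16 and 0.67, while Cd14, a receptor for bacterial lipopolysaccharide, fell by 1.03 and Mertk, a receptor for dying cells, fell by 0.62 (limma adjusted p = 0.00181 and 0.0174). Mrc1, Lyve1 and Cd163 had differences of -0.32, -0.45 and -0.33 and were not called. Aif1, Adgre1, Cx3cr1 and Trem2 had 0.44, 0.43, 0.36 and 0.27, also not called, with every old array above every young one. Of the 20 macrophage markers 14 lay above 0 and 6 below. All old arrays lay above all young ones for 10 of them and below for 3, against 17.0% and 9.70% of all genes. Of 11 T and NK cell markers 2 rose, Cd3g by 1.41 and Cd3d by 0.44, while the list averaged 5.59 to 5.85 on young arrays and 5.85 to 5.95 on old ones. Cd3g was dim, at 3.86 to 5.55, and 3 of the 11 had a mean above the median signal. Of 8 markers of plasmacytoid dendritic cells, a main source of interferon alpha, none was called by limma or had an unadjusted p under 0.05, and they averaged 6.42 to 6.59 on young arrays and 6.48 to 6.55 on old ones. Of 11 marrow neutrophil markers 9 fell, with a mean of 7.08 to 7.59 in young and 6.05 to 6.58 in old samples. Of 8 bone markers 3 fell, with differences of -2.08 (Phex), -1.41 (Mepe) and -1.10 (Dmp1), and 7 of the 8 lay below 0, with a median difference of -1.15. The bone list averaged 7.98 to 8.51 on young arrays and 6.86 to 7.69 on old ones. Of 7 measured B cell markers 1 rose, Blnk by 0.66 (limma adjusted p = 0.0464), and none fell. The B cell list averaged 5.69 to 6.36 in young and 5.72 to 5.99 in old samples, with Jchain alone at 4.49 to 8.01 on young arrays. The 11 endothelial markers, of which none was called by limma and 3 had an unadjusted p under 0.05, averaged 8.14 to 8.42 and 8.31 to 8.37.

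**Figure D5:**
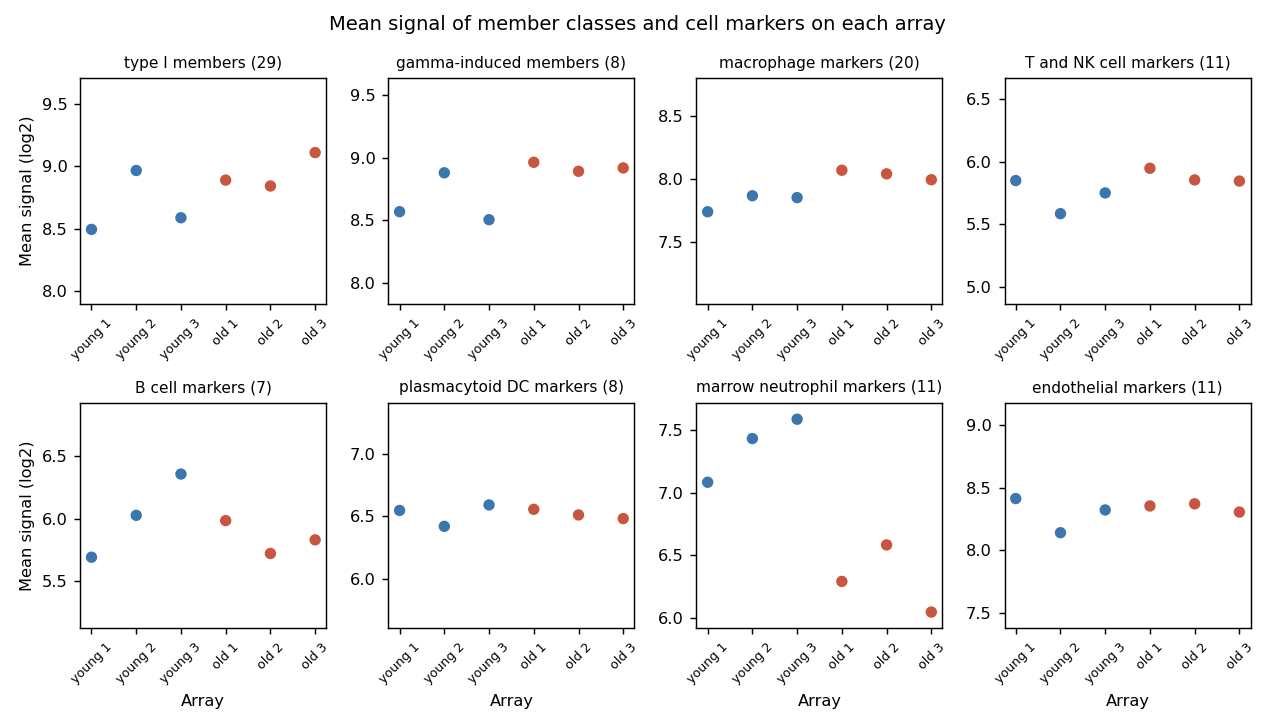
Mean log2 signal (y axis) of the member classes and of 6 lists of cell markers on each array (x axis), young in blue and old in red, with the number of genes in each title and a vertical range of the same length in each panel. Young replicate 2 lies among the old arrays for the type I members, just below them for the gamma-induced members and with the other young arrays for the macrophage markers.

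For the type I members the mean signals were 8.5, 8.97 and 8.59 in young and 8.89, 8.84 and 9.11 in old samples, and for the gamma-induced members 8.57, 8.88 and 8.51 against 8.96, 8.89 and 8.92. The plot of list means by array shows young replicate 2 within the old range of the type I class and just below that of the gamma class. For the macrophage markers that array, at 7.87, was close to young replicate 3, at 7.85, and below all old arrays.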

How the data were processed

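Total RNA from 3 young and 3 old lateral wall samples was converted to biotin-labelled cRNA with an Affymetrix 3′ IVT kit, per the labels' protocols. RMA, MAS5 and Affymetrix Expression Console are named in the submitters' processing notes. Their roles and versions are not given in the sources used here. The deposited table holds log2 values for 45101 probe sets on 6 arrays, with array medians of 6.26 to 6.30. A shift of most genes in 1 direction would be removed by such scaling, and signal over background was not examined. Precision is limited by the 3 arrays per age.

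The 64 control probe sets were left out. Probe sets were named through GEO's platform annotation, and a gene with several was represented by the brightest. For each probe set the deposited log2 values were fitted on age alone in limma 3.58.1 (R 4.3.3; lmFit, then eBayes), with Benjamini-Hochberg adjustment over 45037 probe sets and a threshold of 0.05. The script was tested on simulated data. The members and lists were chosen with earlier results of these data known, so lists are described by counts and medians, without tests.

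All measured members are accounted for. Every array's value is given for members that passed, those without overlap between ages, the 3 brightest of each class, and up to 2 of each role otherwise. Genes of other pathway lists are named if called, up to 4 per direction, or else the one with the smallest p. Further genes named (receptor chains, copies and neighbours of members, cell markers) were chosen after their values were seen or as background. Alternatives were 3 other scalings, leaving out dim probe sets, a robust variance with a trend, weights per array, a replicate block, other handling of a gene's probe sets, and leaving out each array. Same-numbered young and old samples deviated together with correlations of 0.137, 0.0753 and 0.0078, so the numbers were not treated as pairs.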

Additional observations from a re-analysis of the deposited data

How the results depend on the processing

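The 3 called members stayed 3 under 3 other scalings of the arrays (quantile, median, cyclic loess), without dim probe sets, under a robust variance with a trend, with each gene's probe sets averaged, and with adjustment over genes, and Oas1a, Trim30a and Parp14 were the 3 in each. Array weights gave 8 members and 4480 probe sets in all, against 2119. Averaging a gene's probe sets gave 905 called genes and adjustment over 1 probe set per gene gave 885, both of which test fewer features. With the replicate block 3 members and 1932 probe sets passed. Cmpk2 then passed (adjusted p = 0.0369), and Trim30a did not (adjusted p = 0.0519). Leaving out 1 array gave 0 to 12 members and 515 to 3393 probe sets. The type I median ranged from 0.10 to 0.41 and the gamma-induced median from 0.20 to 0.43 over the left-out arrays, and both stayed above 0 in every alternative. No called member changed sign. Among members that were not called, Ifitm3 was at -0.0023 with cyclic loess, and with 1 array left out Ifitm3 ranged from -0.06 to 0.12, Irf7 from -0.10 to 0.45, Bst2 from -0.10 to 0.28, Oas2 from -0.03 to 0.34, Zbp1 from -0.0467 to 0.26, Ifi27l2a from -0.0133 to 0.25 and Oas3 from -0.0067 to 0.19. The causes were not tested. The 3 arrays per age limit the precision of every value.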
